A study of Mus musculus with 18 samples.

Results

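Mitochondrial fatty acid oxidation and its control by PPARα were followed in ileum cells as 34 genes, chosen by symbol and each read by the brightest of its probes on the array. The choice was made with earlier results of these data known, so counts among these genes describe them and are no independent test. All 34 were among the 21542 gene names with a probe above the background filter. The genes covered PPARα itself and CREB3L3, the carnitine system that carries fatty acids into mitochondria, the enzymes of β-oxidation with their electron carriers, the enzymes that handle ketone bodies, and 5 further PPARα target genes.

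RNA came from ileum cells of male C57BL6/J mice and was read on 18 arrays, labelled as 6 replicates in each of 3 groups. Mice labelled iPGC1afl/fl carried floxed alleles of *Ppargc1a* (Pgc1α) and ate either chow or a high-fat diet (HFD) that gave 42% of its energy as fat and contained 0.2% cholesterol. Mice labelled iPGC1a-/- carried the same floxed alleles with a Cre recombinase driven by the Villin promoter, which acts in the intestinal epithelium, and ate the HFD. Mice were 8 weeks old when the diet began, ate it for 8 weeks, and were killed at ZT 3, that is 3 h after lights on. The series' design text calls the animals randomly fasted, whereas the paper's methods give an overnight fast. iPGC1a-/- mice on chow are not part of the data used here. The diet contrast compared iPGC1afl/fl mice on HFD and on chow, and the genotype contrast compared the 2 genotypes on HFD. Both contrasts use the same 6 iPGC1afl/fl HFD arrays.

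Long-chain fatty acids enter mitochondria as carnitine esters, made by CPT1 on the outer membrane, carried inward by SLC25A20 and turned back into acyl-CoA by CPT2. Each turn of β-oxidation then removes an acetyl-CoA in a dehydrogenation, a hydration, a further dehydrogenation and a thiolysis, and the electrons of the first step reach the respiratory chain through the flavoprotein ETF. PPARα is a nuclear receptor that binds fatty acids, pairs with RXR on DNA and switches on many genes of this route, and PGC-1α is a coactivator of it. In the small intestine PPARα is present in enterocytes, which meet dietary fat directly.

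PPARα with RXR binds a direct repeat of the element AGGTCA with 1 base between the copies, written AGGTCANAGGTCA. This 13-base motif was searched on both strands of the RefSeq promoter windows of GRCm38.p6, which reach from 250 bases before to 50 after a transcription start. Up to 2 of the 12 fixed letters were allowed to differ. A match was present in 3.86% of all 32851 windows and in 5 of the 30 windows of members (16.7%), which belonged to 5 of the 27 members with a window. No member window held the motif with 0 or 1 differing letter, against 0.554% of all windows with at most 1. The 4 matches lying wholly before the start are printed so that the letters can be seen, 5′ to 3′ on the gene's strand, with the match in capitals and 20 bases on either side.
*Creb3l3*, chr10:81092768-81092820, minus strand: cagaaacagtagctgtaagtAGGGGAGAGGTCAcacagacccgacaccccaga
*Echs1*, chr7:140116472-140116524, minus strand: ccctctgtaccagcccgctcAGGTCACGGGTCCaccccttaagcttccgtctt
*Etfa*, chr9:55512288-55512340, minus strand: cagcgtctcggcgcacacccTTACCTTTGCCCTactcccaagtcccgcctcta
*Plin2*, chr4:86670252-86670304, minus strand: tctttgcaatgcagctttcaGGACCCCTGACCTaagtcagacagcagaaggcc
In *Etfa* and *Plin2* the repeat reads on the opposite strand. The fifth match, in *Slc25a20*, begins after the transcription start. Of these genes, *Creb3l3* and *Plin2* were past the adjusted p threshold on HFD and *Echs1*, *Etfa* and *Slc25a20* were not. The matches are letters in a window, and binding was not measured.

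Between 56.3% and 62.3% of the probes of an array were well above background. *Ppargc1a*, the gene floxed in all mice, was not lower on the arrays labelled iPGC1a-/-. Its brightest probe read 11.38 ± 0.07 (SD, n = 6) in iPGC1afl/fl HFD and 11.67 ± 0.26 in iPGC1a-/- HFD on the log2 scale. Whether that probe lies in the deleted exons was not determined, so it checks nothing about the deletion, and every genotype difference is between arrays as labelled. The cells came from bulk preparations, in which fewer cells of a type and less RNA per cell cannot be told apart. Markers of the enterocyte were present throughout. All values below are log2 signals of 1 probe after normalization, and they are compared between groups and never between probes. A difference is given with its standard error (SE) and with limma's p adjusted by Benjamini-Hochberg over 32726 probes. A gene was called when its adjusted p was 0.05 or lower and its fold change above 1.5.

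On HFD the module moved mostly upward in iPGC1afl/fl mice, in large steps for a few genes and small steps for many. *Pdk4*, *Ppara*, *Crat* and *Plin2* were called higher and *Oxct1* was called lower. By fold and adjusted p together, 4 of the 34 members were called higher, against 3.22% of all genes tested, and 1 was called lower, against 5.2%. With the adjusted p alone, 16 members were higher (all genes, 10.4%) and 1 was lower (all genes, 14.2%). The median log2 difference was 0.24 over the members and 0.00 over all genes, and 23 of 34 members had the higher mean on HFD, against 50.5% of all genes. All 6 HFD arrays lay above all 6 chow arrays for 10 members (5.11% of all genes), with 1 HFD spot missing for *Crat*, and no member showed the reverse (5.3% of all genes). In the genotype contrast no member was called in either direction, and the members' median was -0.02.

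**Figure D1:**
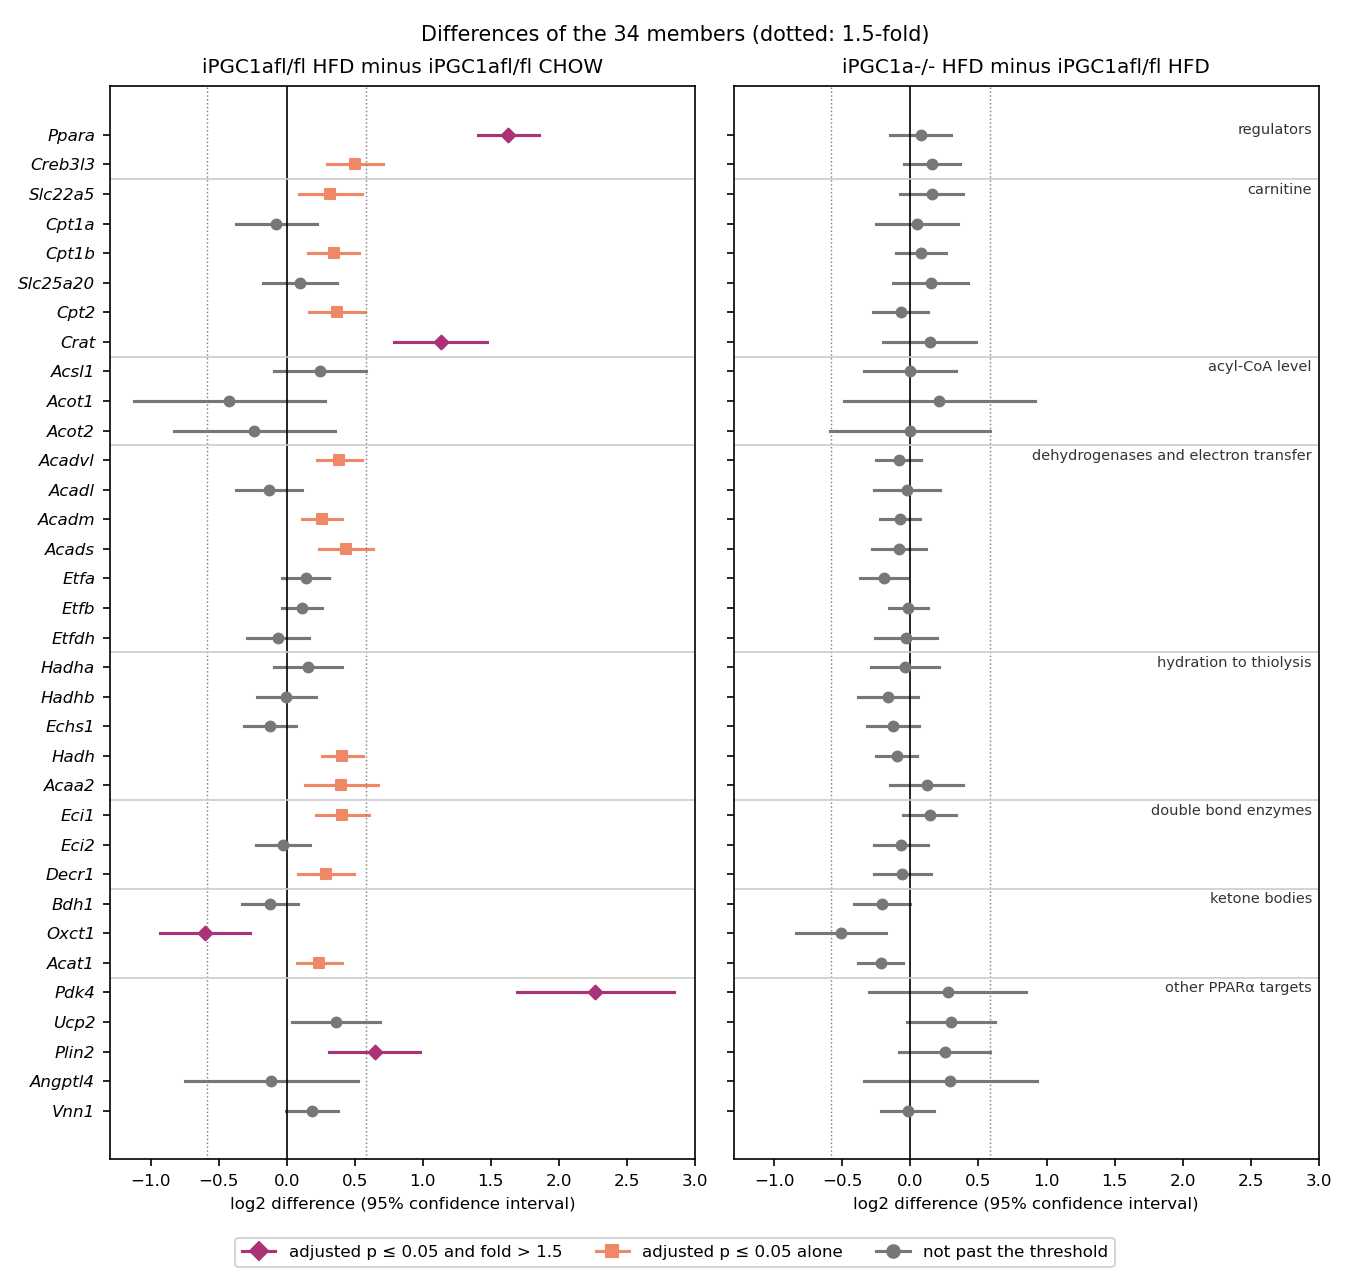
Log2 differences of the 34 members (points) with 95% confidence intervals (lines) for diet (left) and genotype (right), ordered by role. Diamonds mark genes called by adjusted p and fold, squares those past the adjusted p alone, circles the rest; dotted lines stand at a 1.5-fold change. On the left 4 members lie past the right-hand line as diamonds and *Oxct1* past the left-hand one, whereas on the right every point is a circle.

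The receptor gene *Ppara* was 3.09-fold higher on HFD. Its probe (mm9 chr15:85632110-85632169) ranged from 11.23 to 11.69 with a median of 11.30 on chow, from 12.66 to 13.23 with a median of 13.02 in iPGC1afl/fl HFD, and from 12.84 to 13.36 with a median of 13.05 in iPGC1a-/- HFD. The chow arrays thus stood below all HFD arrays with a clear gap, and the ranges of the 2 HFD groups overlapped. The diet difference was 1.63 (SE 0.11, adjusted p = 7.81e-09), and it was 1.41 to 1.84 within each of the 3 slides. A further *Ppara* probe gave 1.78. The genotype difference was 0.07, with a 95% confidence interval from -0.15 to 0.30.

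*Creb3l3* encodes a membrane-bound transcription factor of the liver and intestine that shares target genes with PPARα. It read 15.04 ± 0.26 on chow, 15.54 ± 0.13 in iPGC1afl/fl HFD and 15.70 ± 0.07 in iPGC1a-/- HFD (SD, n = 6 each). The diet difference of 0.50 (SE 0.10, adjusted p = 0.000922) stayed under the fold threshold at 1.42-fold, and passed it with the background-subtracted signal scaled to its 75th percentile (0.59, adjusted p = 0.00149). The chow arrays did not overlap the iPGC1afl/fl HFD arrays.

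**Figure D2:**
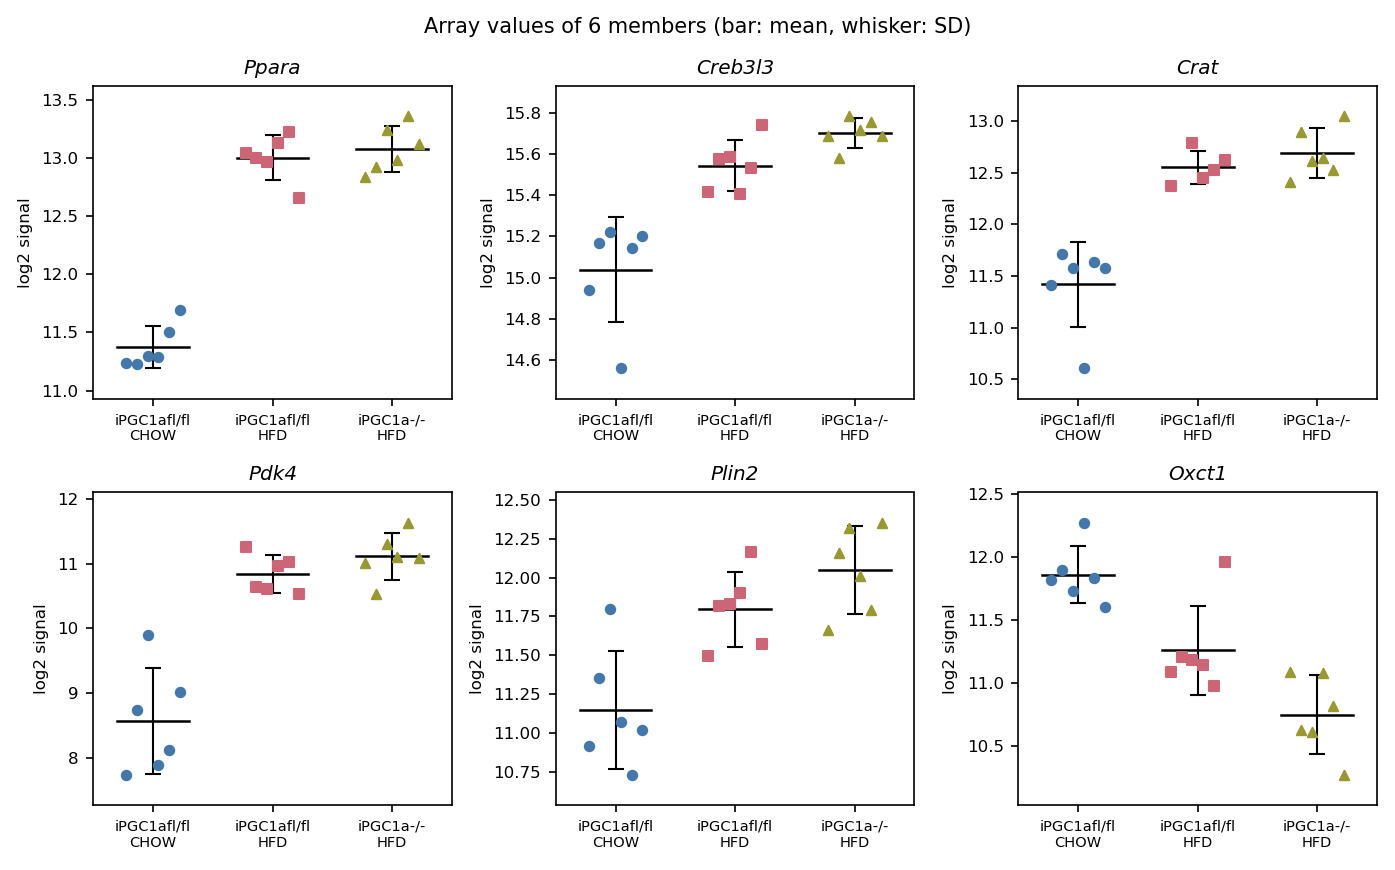
Log2 signal of each array (points) for *Ppara*, *Creb3l3*, *Crat*, *Pdk4*, *Plin2* and *Oxct1* in the 3 groups, with group mean (bar) and SD (whisker); the signal axis does not start at 0. The chow points of *Ppara*, *Creb3l3*, *Crat* and *Pdk4* lie below all iPGC1afl/fl HFD points, *Plin2* overlaps through 1 high chow array, and 1 iPGC1afl/fl HFD array of *Oxct1* lies among the chow points.

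In the carnitine system, 4 of 6 genes were past the adjusted p on HFD and 1 of them, *Crat*, was called. *Crat* encodes carnitine acetyltransferase, which moves acetyl groups between CoA and carnitine inside mitochondria. Its probe (mm9 chr2:30257684-30257743) ranged from 10.61 to 11.71 with a median of 11.58 on chow. It ranged from 12.37 to 12.79 with a median of 12.52 in iPGC1afl/fl HFD, where the spot of replicate 2 was an outlier and was left out (n = 5), and from 12.41 to 13.05 with a median of 12.63 in iPGC1a-/- HFD. Chow and HFD did not overlap, and chow replicate 4 stood well below the other chow arrays. The diet difference was 1.13 (SE 0.16, adjusted p = 5.53e-05) in a fit that drops the missing array, 0.97 to 1.37 within slides, and 0.74 at a much dimmer further probe.

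The other carnitine genes moved less. *Cpt2*, the inner-membrane carnitine palmitoyltransferase, was higher by 0.37 (adjusted p = 0.00904), and its iPGC1afl/fl HFD arrays were tight (13.51 to 13.62) and above all chow arrays (12.93 to 13.36). *Cpt1b*, the muscle-type CPT1, was higher by 0.34 (adjusted p = 0.00786), and *Slc22a5*, the plasma-membrane carnitine transporter OCTN2, by 0.32 (adjusted p = 0.0403), which missed the threshold with the slide as a block (adjusted p = 0.0546). *Cpt1a*, the isoform of liver and intestine that sets the rate of entry, did not pass the test. It read 12.08 ± 0.36 on chow, 12.01 ± 0.26 in iPGC1afl/fl HFD and 12.05 ± 0.14 in iPGC1a-/- HFD (SD, n = 6 each), with a diet difference of -0.08 and an interval from -0.38 to 0.22. *Slc25a20*, the carnitine-acylcarnitine carrier, differed by 0.10 (interval -0.18 to 0.37).

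None of the 3 genes that set the level of acyl-CoA was past the threshold on HFD. *Acsl1*, which activates long-chain fatty acids to acyl-CoA, differed by 0.25 (adjusted p = 0.292). *Acot1* and *Acot2*, neighbouring genes for a cytosolic and a mitochondrial thioesterase that release the acid again, differed by -0.42 (adjusted p = 0.392) and -0.24 (adjusted p = 0.584). Their 60-base probes match at no more than 24 bases in any ungapped alignment. Hybridization to each other's transcripts was not determined. Both had a wide spread on chow, described further on.

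Of the 7 genes for acyl-CoA dehydrogenases and electron transfer, 3 were past the adjusted p on HFD and none reached a 1.5-fold change. The dehydrogenases that start β-oxidation differ in chain length. The very-long-chain enzyme gene *Acadvl* was higher by 0.39 (SE 0.08, adjusted p = 0.00142), the medium-chain gene *Acadm* by 0.26 (SE 0.07, adjusted p = 0.0121) and the short-chain gene *Acads* by 0.43 (SE 0.10, adjusted p = 0.00229). In each of the 3 the HFD and chow arrays of iPGC1afl/fl mice did not overlap. The long-chain gene *Acadl* read 11.84 ± 0.28 on chow and 11.71 ± 0.16 on HFD (SD, n = 6 each), a difference of -0.13 (interval -0.37 to 0.11). The subunits of ETF and its oxidoreductase gave 0.14 for *Etfa*, 0.11 for *Etfb* and -0.07 for *Etfdh*, none past the threshold.

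Among the 5 genes for the later steps, *Hadh* and *Acaa2* were past the adjusted p. *Hadh*, the dehydrogenase of medium and short chains, was higher by 0.41 (SE 0.07, adjusted p = 0.000304), from a chow range of 14.49 to 14.96 to an iPGC1afl/fl HFD range of only 15.11 to 15.20. *Acaa2*, the mitochondrial thiolase, was higher by 0.40 (adjusted p = 0.029) with overlapping groups. The 2 subunits of the trifunctional protein, which carries out these steps on long chains, gave 0.16 for *Hadha* (interval -0.09 to 0.41) and 0.00 for *Hadhb* (interval -0.22 to 0.22). *Echs1*, the short-chain hydratase, gave -0.12 (interval -0.31 to 0.07).

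Oxidation of unsaturated fatty acids needs additional enzymes that move or reduce double bonds. *Eci1*, a mitochondrial enoyl-CoA isomerase, was higher on HFD by 0.41 (SE 0.09, adjusted p = 0.00343), and *Decr1*, the dienoyl-CoA reductase, by 0.29 (SE 0.10, adjusted p = 0.043) with no overlap between the groups. *Eci2* gave -0.03 (interval -0.23 to 0.17).

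The ketone body genes did not move together. *Oxct1* encodes the CoA transferase with which tissues outside the liver use ketone bodies, and it was the only member called lower on HFD. Its probe (mm9 chr15:4103898-4103957) ranged from 11.60 to 12.27 with a median of 11.83 on chow, from 10.97 to 11.96 with a median of 11.16 in iPGC1afl/fl HFD, and from 10.27 to 11.08 with a median of 10.72 in iPGC1a-/- HFD. In iPGC1afl/fl HFD 5 of 6 arrays lay below every chow array, and replicate 6 (11.96) lay among them. The diet difference was -0.60 (SE 0.16, adjusted p = 0.0095), or 1.52-fold lower, at the edge of the fold threshold. It was lower within all 3 slides (-0.69 to -0.53) and by 0.54 at a further probe (log2 difference -0.54, adjusted p = 0.00736). Leaving out 1 array at a time moved it between 1.43-fold and 1.67-fold, and it fell under 1.5-fold without chow replicate 4 (1.43), iPGC1afl/fl HFD replicate 1 (1.49), replicate 3 (1.49) or replicate 5 (1.47), with adjusted p at most 0.0289 throughout.

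*Acat1*, the mitochondrial acetoacetyl-CoA thiolase, was higher on HFD by 0.24 (SE 0.08, adjusted p = 0.0342). *Bdh1*, the 3-hydroxybutyrate dehydrogenase, gave -0.12 (adjusted p = 0.389).

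Of the 5 further PPARα targets, *Pdk4* and *Plin2* were called higher. *Pdk4* encodes a kinase that inhibits pyruvate dehydrogenase and so spares glucose when fat is burnt, and it had the largest diet difference of all members. Its probe (mm9 chr6:5433441-5433500) ranged from 7.74 to 9.91 with a median of 8.43 on chow, from 10.53 to 11.27 with a median of 10.80 in iPGC1afl/fl HFD, and from 10.53 to 11.63 with a median of 11.10 in iPGC1a-/- HFD. Every HFD array stood above every chow array, the chow group being far the widest. The diet difference was 2.27 (SE 0.28, adjusted p = 7.74e-06), or 4.81-fold, and 2.01 to 2.43 within slides.

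*Plin2* encodes a coat protein of lipid droplets. Its probe (mm9 chr4:86302847-86302906) ranged from 10.73 to 11.80 with a median of 11.05 on chow, from 11.49 to 12.17 with a median of 11.83 in iPGC1afl/fl HFD, and from 11.66 to 12.35 with a median of 12.09 in iPGC1a-/- HFD. Chow replicate 3, at 11.80, was the only chow array within the HFD range. The difference was 0.65 (SE 0.16, adjusted p = 0.00614), or 1.57-fold, and 0.54 at a further probe. It fell under the fold threshold without chow replicate 5 (1.48-fold) or iPGC1afl/fl HFD replicate 5 (1.48-fold). *Ucp2*, a mitochondrial carrier of the uncoupling protein family, gave 0.36 (adjusted p = 0.102), and *Vnn1*, a pantetheinase, gave 0.19 (adjusted p = 0.156). *Angptl4*, a secreted inhibitor of lipoprotein lipase, gave -0.11 (interval -0.75 to 0.52).

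Further probes were tested for 15 members, and 13 of these 17 probes had the same sign on HFD as the brightest one. None of the 4 with the other sign was past the threshold.

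**Figure D3:**
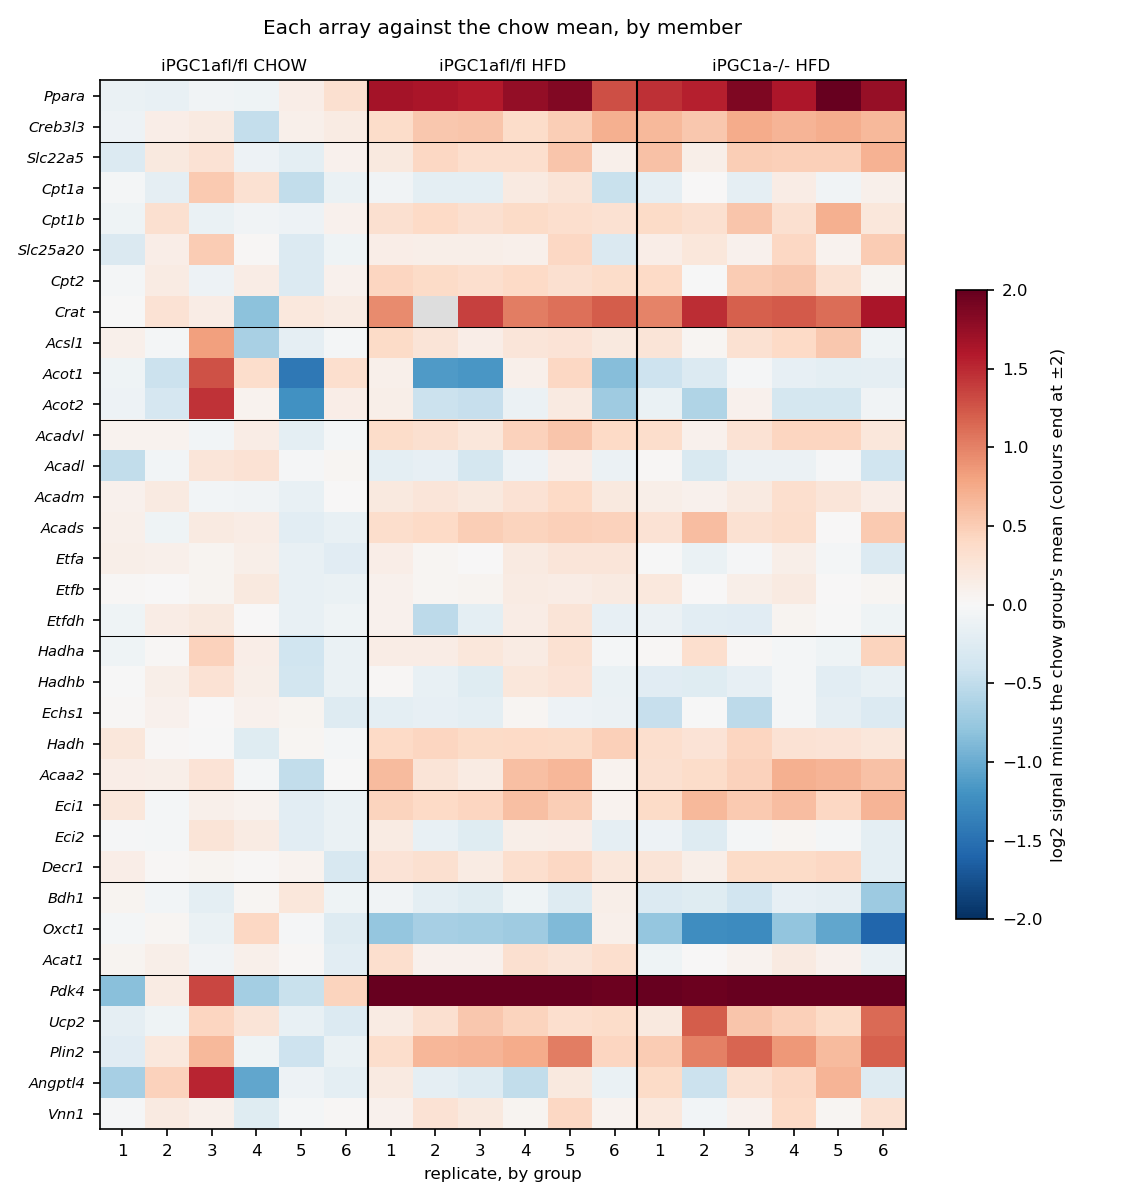
Log2 signal of each array minus the mean of the chow group, for the 34 members (rows, grouped by role) and 18 arrays (columns, by group and replicate number); red is above and blue below the chow mean, colours end at ±2 and grey is the spot left out. *Ppara*, *Crat* and *Pdk4* are red across both HFD groups, *Oxct1* is blue on 11 of the 12 HFD arrays, and chow replicate 3 is dark red for *Acot1*, *Acot2*, *Angptl4* and *Pdk4*.

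Most members varied more among the chow arrays than among the iPGC1afl/fl HFD arrays. For 29 of 34 members the SD was larger on chow than in iPGC1afl/fl HFD, against 56.0% of all genes. The median SD of the members was 0.20 on chow, 0.15 in iPGC1afl/fl HFD and 0.18 in iPGC1a-/- HFD. Over all genes it was 0.18, 0.17 and 0.17. The part of single arrays in these SDs was not tested. Chow replicate 3 was the highest of the chow arrays for 17 of 34 members (22.8% of all genes), and chow replicate 5 the lowest for 15 (11.0% of all genes). In iPGC1afl/fl HFD, replicate 5 was the highest for 17 of the 33 members measured on all its arrays (15.7% of all genes). Members on 1 array share their RNA and are no independent observations of that mouse. Replicates 2 and 3 of iPGC1afl/fl HFD read close to each other. Their summed crypt marker levels (markers described below) were 12.42 and 12.40, against 12.70 to 13.22 in the group's other arrays. *Acot1* read 9.69 and 9.65, against 9.96 to 11.23, though *Etfdh* read 11.05 and 11.38. Summed tuft cell (10.56 and 10.60), goblet cell (17.47 and 17.52) and endothelial levels (6.884 and 6.880) were close as well. T cell levels were 14.51 and 14.61, with replicate 5 at 14.49. Whether these arrays come from separate mice was not tested, and SDs, SEs and p-values of both contrasts treat them as such. If they did not, this group would hold fewer than 6 independent mice.

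*Acot1* read 12.09 in chow replicate 3 and 9.39 in replicate 5, and between 10.39 and 11.16 in the other chow arrays. *Acot2* read 10.54 and 7.87 in the same arrays, against 8.75 to 9.23 in the others. For *Angptl4*, chow replicate 3 stood at 15.73, with the other chow arrays from 13.17 to 14.67. Without chow replicate 3 the diet difference turned in sign for *Acot2* (-0.24 to 0.03), *Angptl4* (-0.11 to 0.18), *Cpt1a* (-0.08 to 0.02), *Eci2* (-0.03 to 0.02) and *Hadhb* (-0.0021 to 0.05), none past the threshold. *Acsl1* (0.39, adjusted p = 0.0273) and *Ucp2* (0.43, adjusted p = 0.0493) then passed the adjusted p, *Pdk4* rose to 2.52, *Acat1* (adjusted p = 0.0795) and *Decr1* (adjusted p = 0.0561) no longer passed, and 28 of 34 members had the higher mean on HFD.

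**Figure D4:**
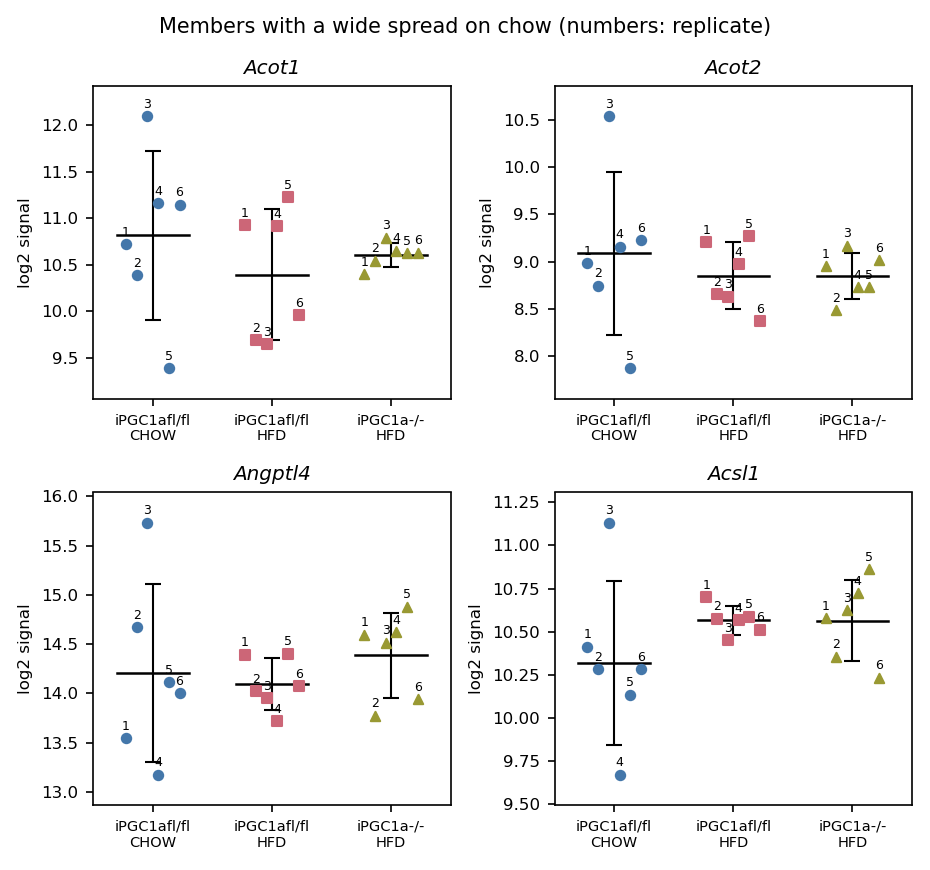
Log2 signal of each array (points, numbered by replicate) for *Acot1*, *Acot2*, *Angptl4* and *Acsl1* in the 3 groups, with group mean (bar) and SD (whisker); the signal axis does not start at 0. Chow replicate 3 is the highest point of all 18 in each panel, and replicate 5 is the lowest chow point for the 2 thioesterase genes.

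Cell type markers moved with diet beside these genes. Of the 12 enterocyte markers, 2 were called higher and 0 lower, with a median difference of 0.17 and a summed level on the log2 scale from 19.69 to 20.00 on chow, 19.95 to 20.19 in iPGC1afl/fl HFD and 20.10 to 20.33 in iPGC1a-/- HFD. Of the 8 T cell markers, 7 were called lower and 1 higher on HFD (median -1.56), with summed levels from 14.46 to 15.74 on chow and 14.05 to 14.61 in iPGC1afl/fl HFD. All 7 B and plasma cell markers tested were past the adjusted p and lower (median -1.95), from 11.32 to 12.41 down to 10.11 to 11.07. Of the 6 goblet cell markers, 5 were called lower and none higher (median -0.73), from 18.29 to 18.69 down to 17.32 to 18.39. Of the 4 macrophage and dendritic cell markers tested, 2 were called lower (median -0.56), with summed levels from 9.86 to 10.26 on chow and 9.35 to 9.60 in iPGC1afl/fl HFD, which did not overlap. The 5 markers of the ileal enterocyte went both ways, with 1 called higher and 2 lower (median -0.11). Calls were few among crypt (1 of 7 lower), Paneth (2 of 5 lower), enteroendocrine (1 of 6 lower) and tuft cell markers (1 of 3 lower), and there were none among the fibroblast, smooth muscle, endothelial, hepatocyte and adipocyte markers tested. In the genotype contrast no marker of any list was called. Their part in the members' differences was not tested.

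The other genes of the route were read from 3 further lists, also chosen with earlier results of these data known. Their counts are therefore descriptive. In a list of 30 PPAR target genes outside the members, 27 had a tested probe. On HFD 12 were called higher (all genes, 3.22%) and none lower (all genes, 5.2%). By adjusted p alone 17 were higher (all genes, 10.4%), and the median difference was 0.53. The highest were *Retsat*, a retinol saturase (2.01, SE 0.16), *Cd36*, the fatty acid translocase (1.94, SE 0.24), *Cyp4a31* (1.70, SE 0.37) and *Cyp4a10* (1.59, SE 0.36), which belong to the ω-hydroxylases of fatty acids. The 8 others called were *Acot12* (1.40), *Tmem135* (1.15), *Aldh3a2* (0.98), *Fabp1* (0.88), *Pdk2* (0.87), *Acaa1b* (0.84), *Slc27a2* (0.74) and *Acot4* (0.60). *Fabp1* encodes the fatty acid binding protein of liver and intestine, *Acaa1b* a peroxisomal thiolase and *Slc27a2* a very-long-chain acyl-CoA synthetase. *Cyp4a* genes are near-identical copies in part, so a probe may read more than 1 of them.

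**Figure D5:**
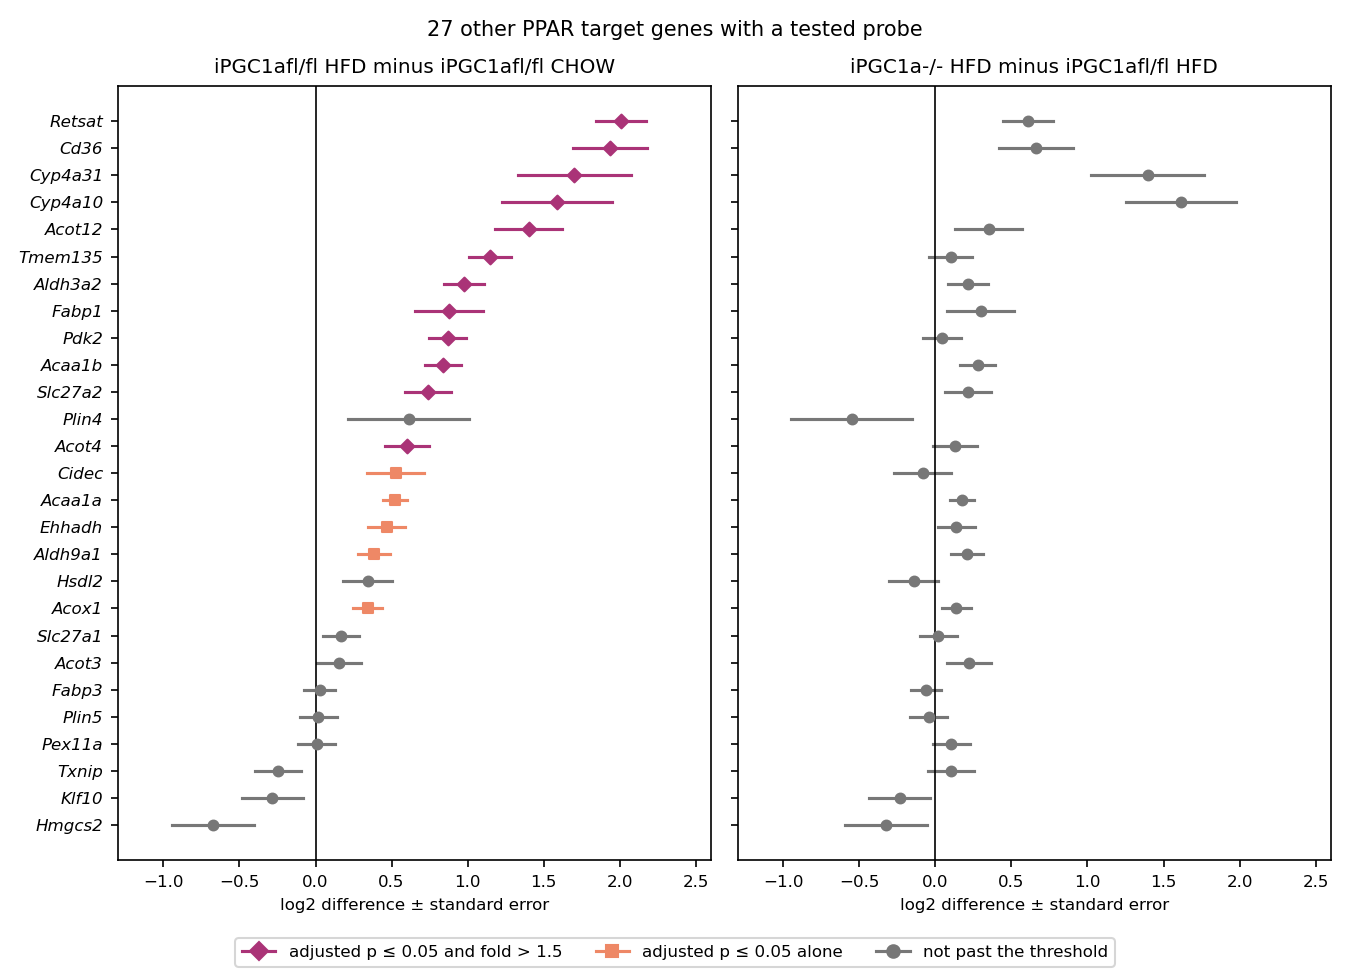
Log2 differences (points) ± SE (lines) of 27 PPAR target genes outside the members, for diet (left) and genotype (right), ordered by the diet difference; symbols as in the plot of member differences. On the left 12 genes are called, all higher, up to 2.01 for *Retsat*. On the right none is called, and *Cyp4a10* (1.61) and *Cyp4a31* (1.40) lie farthest to the right.

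In a list of other acyl-CoA enzymes, 4 of 29 tested genes were called higher on HFD (all genes, 3.22%) and 1 lower (all genes, 5.2%), with a median of 0.09. The 4 were *Acss1*, a mitochondrial acetyl-CoA synthetase (1.04, SE 0.16), *Hsd17b4*, the peroxisomal bifunctional enzyme (0.95, SE 0.10), *Acad11* (0.70, SE 0.11) and *Nudt7*, a peroxisomal CoA hydrolase (0.66, SE 0.10). The 1 lower was *Acacb* (-1.04, SE 0.25), the acetyl-CoA carboxylase that makes malonyl-CoA, an inhibitor of CPT1, at the mitochondrial surface. Among 20 receptors and coregulators, *Pparg* was called lower (-0.64, SE 0.17, adjusted p = 0.00809) and none higher. That call was lost without chow replicate 3 or iPGC1afl/fl HFD replicate 2, and leaving out single arrays gave 0 to 3 genes called lower in this list.

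Between the genotypes on HFD, no member was called higher (all genes, 0.0603%) or lower (all genes, 0.0743%) by adjusted p and fold, nor by limma's adjusted p alone (all genes, 0.065% higher and 0.162% lower). In no member were the groups free of overlap (all genes, 0.32% higher and 0.645% lower). At an unadjusted p under 0.05 there were 4 members, or 11.8%, against 9.30% of all genes. The means were higher in iPGC1a-/- for 14 members and lower for 20, against 51.9% of all genes with the higher mean. The median size of the difference was 0.11 over members and 0.09 over all genes. For 27 members the 95% confidence interval lay within a 1.5-fold change either way, as it did for 90.6% of all genes. For *Acot1*, *Acot2*, *Oxct1*, *Pdk4*, *Ucp2*, *Plin2* and *Angptl4* it reached past that size, so a difference of 1.5-fold was not excluded there. By RT-qPCR the paper reports that intestinal β-oxidation genes were reduced without Pgc1α, in a figure whose legend lists *Acadm*, *Cpt1a* and *Cpt1b*. On the arrays these differed by -0.08, 0.05 and 0.08, none past the threshold. RT-qPCR and arrays differ in method and number of animals, and the reason for the difference was not tested.

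The 4 members at an unadjusted p under 0.05 were all lower in iPGC1a-/-, and 3 of them were the 3 ketone body genes. *Oxct1* was lower by 0.51 (log2 difference -0.51, SE 0.16, unadjusted p = 0.0044, adjusted p = 0.314), with the values listed above, and by 0.54 at its further probe (log2 difference -0.54, adjusted p = 0.175). It was lower within all 3 slides, from -0.71 to -0.37, and the groups overlapped. *Acat1* differed by -0.22 (SE 0.08, unadjusted p = 0.0117, adjusted p = 0.405), reading 10.78 ± 0.12 in iPGC1afl/fl HFD and 10.56 ± 0.12 in iPGC1a-/- HFD (SD, n = 6 each; limma). *Etfa* differed by -0.20 (adjusted p = 0.476), but by -0.10 and -0.01 at its 2 further probes, and *Bdh1* by -0.21 (adjusted p = 0.512). None of these passed the correction over all probes.

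By role, the means of the 7 dehydrogenase and electron transfer genes were all lower in iPGC1a-/-, by 0.02 to 0.20 (log2 differences -0.20 to -0.02), and those of the 3 ketone body genes by 0.21 to 0.51 (-0.51 to -0.21). With 1 array left out the sign could turn for *Acadl* (up to 0.04), *Etfb* (up to 0.005) and *Etfdh* (up to 0.04). Within slides *Acadl* and *Etfdh* were higher in iPGC1a-/- in 2 of 3, and of the 7 only *Etfa* was lower in all 3. The carnitine genes had the higher mean in 5 of 6, none by more than 0.16, and the 5 further PPARα targets in 4 of 5, up to 0.30 for *Ucp2* (adjusted p = 0.558). No value of these roles was past the threshold. In the list of other PPAR target genes none was called between genotypes, and 1 was called higher with normexp background correction and quantile normalization and when only the 2 groups compared entered the fit. *Cyp4a10* (1.61, SE 0.36, adjusted p = 0.0894) and *Cyp4a31* (1.40, SE 0.37, adjusted p = 0.201) had the largest differences of the genes called on HFD in that list, both higher in iPGC1a-/-, and 0 to 2 genes of the list were called when 1 array was left out, 2 of them without iPGC1afl/fl HFD replicate 5. Among the receptors and coregulators, *Esrra*, a nuclear receptor that works with PGC-1α, was lower by 0.40 (log2 difference -0.40, SE 0.08, adjusted p = 0.0488), under the fold threshold. It was chosen for mention after its value was seen.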

How the data were processed

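The authors scanned 1 Agilent one-colour array per labelled replicate. For each of 18 arrays they deposited spot intensity values from Agilent Feature Extraction 10.10.1.1 (per the labels) that were not normalized between arrays. They also deposited log2 values of 33095 probes, which per the supplementary methods were filtered, corrected for washing bath and labelling serial and normalized with qsmooth. Those batches are not given in the sources used here.

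The log2 median signal of the scanner files was analysed. Control spots were left out, as were 46 to 153 outlier spots per array. A probe was kept where some group had it well above background on 5 or more of its 6 arrays (32726 of 56605). The kept probes were normalized by an own version of qsmooth (window 0.05) and tested with limma 3.58.1 (lmFit, eBayes; R 4.3.3) in 1 model of the 3 groups. Slides (3) held 2 arrays of every group and were scanned once each. Probe coordinates were taken from the array files, which use mm9. Of the 21542 gene names tested, 15044 match a symbol of the GRCm38.p6 RefSeq table, all 34 members included. Precision is limited by the 18 arrays, and signals near background understate changes. Nothing shows whether the mice of a group were independent litters, so p-values measure the spread between these arrays as labelled.

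The members were fixed by symbol, and among other lists the genes named are those called by adjusted p and fold in either contrast, and *Ppargc1a*; *Esrra* is named outside this rule. Members and lists were chosen with earlier results of these data known. Arrays were also simulated from the measured means and SDs, with 50 of 32726 probes shifted at each size. At a log2 shift of 0.75, limma found 92% of these probes for diet and 90% for genotype. At 0.3, which lies under the fold threshold, it found 16% and 20%. In the measured diet contrast 10.4% of all genes were higher and 14.2% lower by adjusted p alone. The Benjamini-Hochberg adjustment is stricter where fewer probes change. In the measured genotype contrast 0.065% of all genes were higher and 0.162% lower by adjusted p alone. Simulated noise was drawn independently for each probe. The simulated rates therefore do not describe the measured diet contrast or the measured genotype contrast. The deposited log2 table was used as an alternative only. Its columns correlated with the own values of the same arrays at 0.9996 or above after centring each probe, with column medians from 7.441 to 7.445.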

Additional observations from a re-analysis of the deposited data

Results flagged for a closer look

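In 102 sets of arrays (34 members in 3 groups, 6 arrays each except 5 for *Crat* in iPGC1afl/fl HFD) the distance of the highest or lowest array from its neighbour was set against the range of the group, and in 5 sets it was past the 95% critical value of Dixon's test for that number of arrays. By chance about 1 in 20 sets would be. On chow, replicate 4 was the low array for *Crat* (0.726 of the range), and replicate 6 was the low array for *Echs1* (0.783) and *Decr1* (0.778). In iPGC1afl/fl HFD, replicate 4 was the high array for *Echs1* (0.64) and replicate 6 the high array for *Oxct1* (0.77). *Crat* and *Oxct1* were both called between diets. Without chow replicate 4 *Crat* was still called, and without iPGC1afl/fl HFD replicate 6 the diet difference of *Oxct1* was -0.74 (limma, adjusted p = 0.000648).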

How the results depend on the processing

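The counts of called members were recomputed under 13 other settings and without each of the 18 arrays. With the adjusted p alone, 17 members were called on HFD, 16 of them higher. No member was called lower (0) with the background-subtracted or the median signal scaled to its 75th percentile or with the mean of a gene's probes, under each of which *Oxct1* stayed past the adjusted p but under the fold threshold. Leaving out 1 array gave 3 to 5 members called on HFD, 3 to 4 higher and 0 to 1 lower, with 3 in all without iPGC1afl/fl HFD replicate 5. Past the adjusted p alone, 14 to 16 members were higher under the other settings and 12 to 16 with 1 array left out. *Slc22a5*, *Acaa2*, *Decr1* and *Acat1* lost the threshold under at least 1 of these, and no member past it changed direction. In the genotype contrast 0 members were called under every setting and omission. *Crat* had no value under the filter that required all 18 arrays, because of its missing spot. Same-numbered arrays of the groups correlated between -0.19 and 0.33 in their deviations. Chow replicates 1, 3, 4 and 5 correlated best with the same number in iPGC1afl/fl HFD, and replicates 2 and 6 with another. From iPGC1afl/fl HFD to iPGC1a-/- HFD this held for replicates 1, 4 and 5 and failed for 2, 3 and 6. These values cannot tell whether the numbers pair the mice. With the replicate number as a block, 5 members were called on HFD, 4 higher and 1 lower, and 0 between genotypes, and *Slc22a5* lost the threshold (adjusted p = 0.0603). With the slide as a block the counts by adjusted p and fold were the same, and *Slc22a5* again lost the threshold (adjusted p = 0.0546), which left 15 members higher past the adjusted p. *Creb3l3* was called in addition with the background-subtracted signal. Signals near background limit the dimmest probes; all 34 brightest probes were well above background on all arrays measured.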
